A study of Mus musculus with 12 samples.

Results

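The nuclear subunits of the oxidative phosphorylation complexes were followed in the mouse aorta after elastase infusion. Genes were chosen by symbol: Nduf followed by a, b, c, s or v and a digit for complex I, Sdha to Sdhd for complex II, Uqcr for complex III, Cox4 to Cox8 for complex IV and Atp5 for complex V, without Cox7a1, Cox8b and pseudogenes. Where a gene had several RefSeq accessions, the accession with the highest level stood for it, and a mean of at least 1 CPM over the 12 libraries was required (CPM, counts per 1000000 counts of a library after scaling between libraries). This left 66 of the 24341 genes with a symbol in the count table: 31 of complex I, 4 of complex II, 8 of complex III, 10 of complex IV and 13 of complex V. All 66 also passed the filter on low counts and were tested.

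RNA of 12 aortas was sequenced, each from a male C57BL/6J mouse aged 10 weeks, with 4 libraries in each of 3 groups. Porcine pancreatic elastase (PPE), which digests elastic fibres, was infused into the aorta below the renal arteries, and tissue was taken at day 7 (PPE week 1) or at day 14 (PPE week 2). Controls were infused with saline and taken at day 7, so PPE week 2 had no control of its own day. The comparisons ask how the aortic transcriptome differs after elastase from the saline control, and between the PPE weeks. Because whole tissue was measured, fewer cells of a type and less RNA per cell cannot be told apart.

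Oxidative phosphorylation is the process by which mitochondria make ATP. Complexes I to IV pass electrons from NADH and succinate through ubiquinone and cytochrome c to oxygen, and complexes I, III and IV pump protons out of the matrix, which complex V lets back in to drive ATP synthesis. Most subunits are encoded in the nucleus, made in the cytosol and imported, while a few core subunits are encoded in mitochondrial DNA and are not part of the set described here. In the vessel wall most of these genes are expressed by all cell types, and most are expressed strongly in brown fat, which surrounds parts of the aorta.

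The total count per library was 8343313 to 12269131, of which the ribosomal RNA precursor NR_046233 took 21 to 34.6% at PPE week 1, 19.5 to 22.1% at PPE week 2 and 36.2 to 49.9% in saline. The shares in PPE week 2 and saline libraries did not overlap, so this difference and the group cannot be told apart. All 10 smooth muscle markers were detected, while the endothelial markers Pecam1 and Tek had a count of 0 in every library. Some subunit genes were close to 0 as well: 16 further symbols that match the rule stayed below 1 CPM, among them Ndufs1 with a count of 0 and Cox4i1 with 7 counts over all libraries. How reads shared by several isoforms were counted is not given in the sources used here, so a count near 0 does not show a low level of the gene. The gene nearest above the minimum was Atp5c1 at 1.02 CPM, and the nearest below it was Atp5j at 0.846 CPM. Of the 66 genes, 63 had a single accession.

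Per length, the highest levels in saline were those of Cox6a1, the form of a complex IV subunit found in most tissues, and of Atp5a1 and Atp5b, the subunits of ATP synthase that form its catalytic head. Cox6a1 was at 133 ± 17.96 CPM per kilobase at PPE week 1, 229.9 ± 137 CPM per kilobase at PPE week 2 and 192 ± 30.02 CPM per kilobase in saline (kilobases of transcript, mean ± SD, n = 4 each, here and below). Atp5a1 was at 159.9 ± 8.13 CPM per kilobase at PPE week 1, 184 ± 73.3 CPM per kilobase at PPE week 2 and 178 ± 36.2 CPM per kilobase in saline. Atp5b was at 119.6 ± 6.62 CPM per kilobase at PPE week 1, 145 ± 62.3 CPM per kilobase at PPE week 2 and 134 ± 22.4 CPM per kilobase in saline. PPE week 1 had the lowest mean and PPE week 2 the widest spread for all 3 genes.

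The summed level of the 66 genes set a single library apart. PPE week 1 libraries had 2168, 2373, 2340 and 2212 CPM in replicates 1 to 4, PPE week 2 libraries 4433, 1879, 2663 and 2673 CPM, and saline libraries 2809, 2393, 2094 and 2901 CPM. PPE week 2 replicate 1 thus lay above all 11 other libraries and PPE week 2 replicate 2 below them, while the 4 libraries of PPE week 1 lay close together. The means were 2273 ± 98.9, 2912 ± 1080 and 2549 ± 376 CPM for PPE week 1, PPE week 2 and saline. PPE week 2 replicate 1 was the highest of the 12 libraries for 38 of the 66 genes, against 14.4% of all 12756 rows tested, and PPE week 2 replicate 2 was the lowest for 22 of the 66, against 10.2% of all rows. The median SD of log2 CPM within a group was 0.26 at PPE week 1, 0.56 at PPE week 2 and 0.40 in saline over the 66 genes, and 0.35, 0.59 and 0.50 in the same order over all rows.

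**Figure D1:**
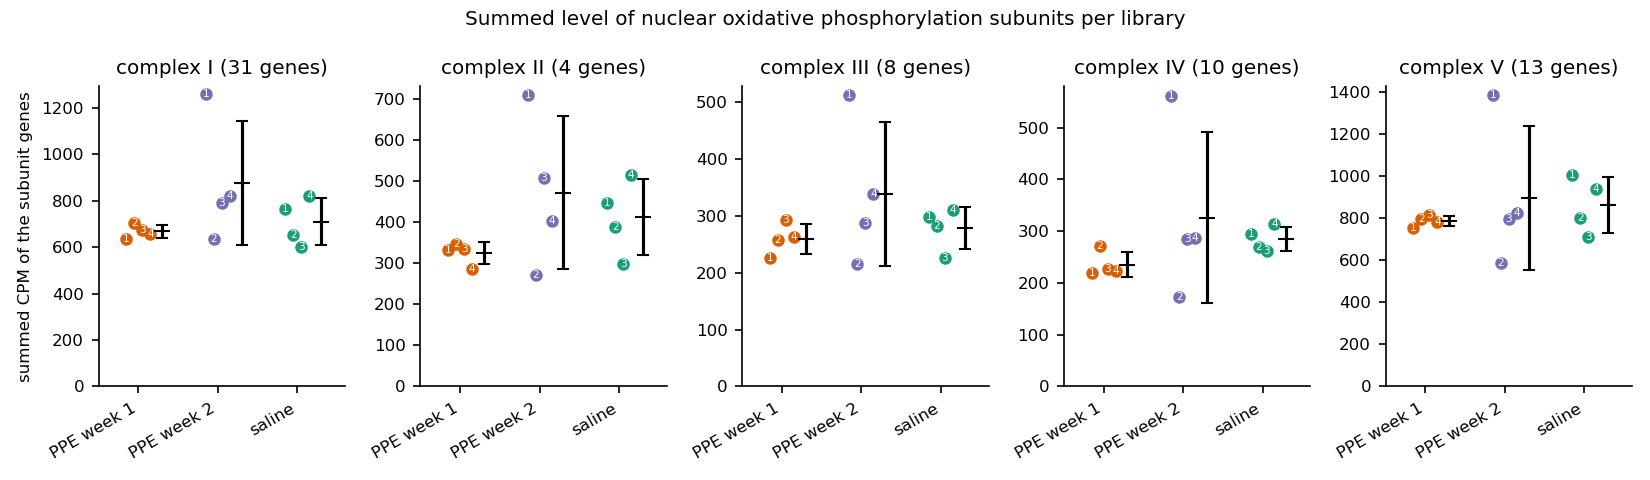
Summed CPM (linear axis from 0) of the subunit genes of each complex in PPE week 1, PPE week 2 and saline libraries. Points are libraries with their replicate number, and bars show the mean ± SD (n = 4). PPE week 2 replicate 1 is the highest library for every complex, for example at 1261 CPM for complex I and 1387 CPM for complex V.

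PPE week 2 replicate 1 was the highest library within each complex, and PPE week 2 replicate 2 the lowest for all complexes except complex I, where saline replicate 3 was lower. Complex I genes summed to 636, 703, 674 and 658 CPM at PPE week 1, to 1261, 636, 789 and 821 CPM at PPE week 2 and to 766, 653, 600 and 822 CPM in saline. For complex V the sums were 755, 794, 813 and 780 CPM at PPE week 1, 1387, 585, 795 and 822 CPM at PPE week 2 and 1005, 799, 708 and 938 CPM in saline. The PPE week 2 sums of all 5 complexes overlapped those of saline, both with and without PPE week 2 replicate 1.

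Lists of other genes were summed in the same libraries. The enzymes of the tricarboxylic acid cycle, which feed electrons into the chain, summed to 653, 707, 792 and 695 CPM at PPE week 1, 1591, 626, 959 and 890 CPM at PPE week 2 and 974, 782, 698 and 1097 CPM in saline. Brown adipocyte markers, of which Cox7a1 and Cox8b are the genes left out above and of which 9 of 10 were tested and none was at 0 in all libraries, summed to 9.64, 51.5, 44.7 and 26.8 CPM at PPE week 1, 624, 21.8, 104 and 126 CPM at PPE week 2 and 152, 115, 81.01 and 253 CPM in saline. Ucp1, the uncoupling protein that defines brown fat, ranged from 0 to 4.87 CPM at PPE week 1, from 0.192 to 226 CPM at PPE week 2 and from 7.58 to 57.7 CPM in saline, and it was not called. Dio2, a deiodinase and the one gene of this list that was called, was lower than in saline at both weeks, at 7.33 ± 3.02 CPM at PPE week 1, 10.6 ± 6.13 CPM at PPE week 2 and 39.3 ± 11.99 CPM in saline (log2 fold change -2.43 ± 0.43, adjusted p = 0.00361, and -1.89 ± 0.42, adjusted p = 0.025, edgeR quasi-likelihood test). White adipocyte markers, of which 6 of 10 were tested and Cfd was at 0 in all libraries, were highest in PPE week 2 replicate 1, at 3169 CPM, and lowest in PPE week 2 replicate 2, at 312 CPM, against 400 to 695 CPM at PPE week 1 and 801 to 2213 CPM in saline. The part of these lists in the level of the subunit genes was not tested.

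**Figure D2:**
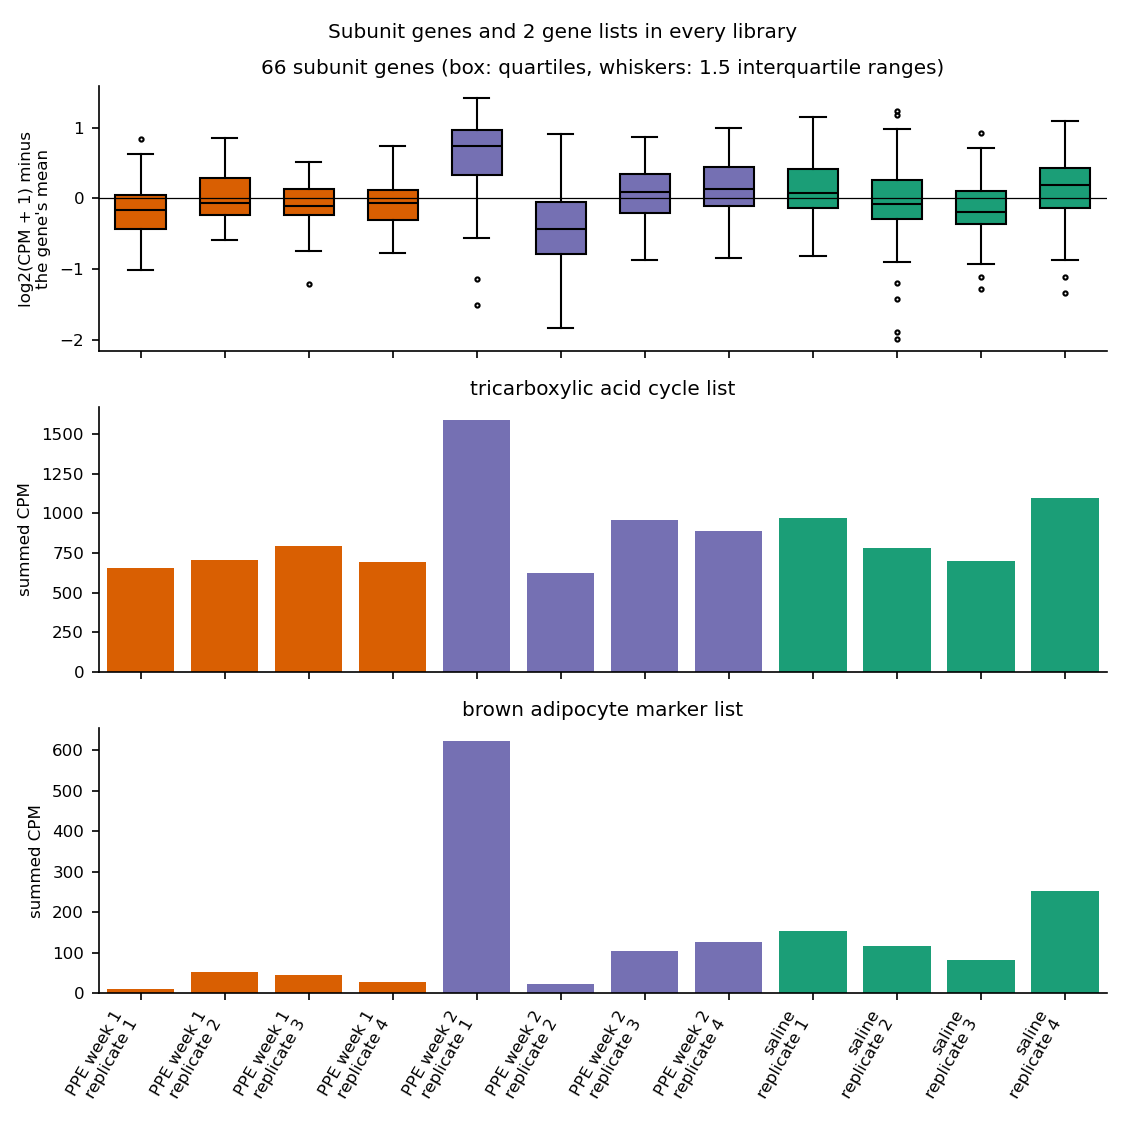
Upper panel: deviation of the 66 subunit genes from their own mean over 12 libraries, as log2(CPM + 1), with a box per library. Middle and lower panels: summed CPM of the tricarboxylic acid cycle list and of the brown adipocyte markers (linear axes from 0). PPE week 2 replicate 1 is highest in all 3 panels, at 1591 and 624 CPM in the lower panels.

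At PPE week 1 none of the 66 genes differed from saline at an adjusted p under 0.05 (edgeR quasi-likelihood test, Benjamini-Hochberg adjustment over 12756 rows), against 7.89% of all rows (3.98% higher and 3.91% lower). Before adjustment, 0 genes were higher at p under 0.05 (11.6% of all rows) and 2 lower (10.1%), Ndufa6 and Atp5e. DESeq2 and limma-voom also called none, against 12.4% and 7.34% of all rows. A fit to the 8 libraries of both groups tested 65 of the genes and called 4 lower (Ndufa6, Ndufb6, Sdha and Cox6a1), against 7.83% of its rows. All PPE week 1 libraries lay below all saline libraries for 6 genes, namely Ndufb4, Ndufb6, Ndufb8, Ndufs3, Cox6a1 and Cox6b1, and above them for 0, against 9.01% and 12.1% of all rows. The share of genes with lower groups that do not overlap, 9.09%, was thus near that of all rows. The median log2 fold change of the 66 genes was -0.16, with a range of -1.44 (Atp5c1) to 0.73 (Uqcr11), against 0.0027 over all rows, and 27 of 66 were above 0 against 50.2% of all rows. With scaling by library size alone the median over all rows moved by 0.28 and that of the 66 genes became 0.12, so that its sign rests on the scaling, while the difference between both medians was -0.16 under either scaling.

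Markers of several cell types differed as well at PPE week 1. Of 10 smooth muscle markers 9 fell at PPE week 1, and their summed level was 2474 to 4651 CPM at PPE week 1 and 10074 to 13224 CPM in saline. Of 11 macrophage markers tested 3 rose, with sums of 4338 to 5568 CPM at PPE week 1 and 2176 to 2655 CPM in saline. Of 10 fibroblast markers 5 fell (Dpt, Dcn, Lum, Pi16 and Ogn), while the sum of the list, mostly Col1a1 and Col3a1, was 51836 to 67773 CPM at PPE week 1 and 43520 to 56165 CPM in saline. Of 5 pericyte markers tested 2 fell, Kcnj8 and Rgs5, which is also in the smooth muscle list, with sums of 793 to 1392 CPM at PPE week 1 and 3581 to 4857 CPM in saline. No marker of endothelial or white adipocyte cells was called, and of the brown adipocyte markers Dio2 fell. Their part in the level of the subunit genes was not tested. In the authors' deposited table for this comparison 6 of the 66 genes were lower at an adjusted p under 0.05 and 0 higher. The 6 genes were Ndufa6, Ndufb6, Ndufs3, Sdha, Cox6a1 and Cox6b1. Of all rows in that table, 17.4% were under the threshold in either direction.

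At PPE week 2 a single gene, Ndufs7, was higher than in saline at an adjusted p under 0.05 and 0 were lower, against 1.3% and 1.35% of all rows (2.65% in either direction). At an unadjusted p under 0.05, 12 of 66 genes were higher and 3 lower, against 8.84% and 7.72% of all rows. The libraries did not overlap for 6 genes that were higher (Ndufa3, Ndufb11, Ndufb7, Ndufs7, Cox7c and Atp5d; 4.55% of all rows) and 1 that was lower (Ndufb4; 4.44%). The median log2 fold change was 0.13, against 0.05 over all rows, and 42 of 66 genes were above 0, against 53.7%. By DESeq2, Ndufs7, Ndufv1 and Atp5d were higher and Ndufb4 lower at an adjusted p under 0.05, against 3.21% and 2.63% of all rows, so that the share of genes called was near that of all rows. Without PPE week 2 replicate 2 Ndufv1 was called as well (1.66% of all rows called), and without PPE week 2 replicate 3 Ndufb4 (2.88%). Without PPE week 2 replicate 1 the median became -0.11, with 29 of 66 genes above 0, and without PPE week 2 replicate 2 it was 0.31. The median was highest for complex III at 0.39 and lowest for complex V at -0.25, where 5 of 13 genes were above 0, while all 4 complex II genes were. In the authors' deposited table, 62 of the 66 genes had a value. Of these, Ndufs7 was higher and Ndufb4 lower at an adjusted p under 0.05, against 3.83% of all rows in that table in either direction. At PPE week 2 against saline, 3 fibroblast markers (Dpt, Dcn and Lum) and the brown adipocyte marker Dio2 were called lower. The 2 pericyte markers Cspg4 and Notch3 were called higher. Over all tested markers of each list, the median log2 fold change was -0.32 for fibroblast, 0.73 for brown adipocyte and -0.06 for pericyte markers. The brown adipocyte and pericyte lists thus did not move as their called markers did, and the part of these lists was not tested.

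Between the PPE weeks, 2 complex I genes, Ndufv1 and Ndufs7, were higher at PPE week 2 than at PPE week 1 at an adjusted p under 0.05 and 0 were lower, against 3.77% and 2.82% of all rows (6.59% in either direction). At an unadjusted p under 0.05, 9 were higher and 1 lower, against 10.6% and 9.87%. The libraries did not overlap for 3 genes that were higher (Ndufb11, Ndufs7 and Ndufv1; 7.24% of all rows) and 1 that was lower (Ndufb4; 8.68%). The median log2 fold change was 0.35, against 0.02 over all rows, and 45 of 66 genes were above 0, against 51.3%. Without PPE week 2 replicate 1 the median was 0.016 and no gene was called, against 4.52% of all rows. Without PPE week 2 replicate 2 the median was 0.45 and 7 genes were called: Cox6a1, Ndufb6, Ndufb8, Ndufb9, Ndufs7, Ndufv1 and Sdha, all higher, against 4.83% of all rows. The summed smooth muscle markers were 7403 to 17030 CPM at PPE week 2 and 2474 to 4651 CPM at PPE week 1, with 9 of 10 higher at PPE week 2. Of the other cell type lists, 3 of 5 pericyte markers (Rgs5, Cspg4 and Notch3), 2 of 10 fibroblast markers (Pi16 and Ogn) and the endothelial marker Vwf were higher at PPE week 2, and 2 of 11 macrophage markers (Cd68 and Lyz2) lower. The median log2 fold change over all tested markers was 0.95 for pericyte, -0.11 for fibroblast, -0.02 for endothelial and -0.80 for macrophage markers. The part of these lists was not tested. Both comparisons with saline share the saline libraries, and both comparisons of PPE week 2 share its libraries.

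**Figure D3:**
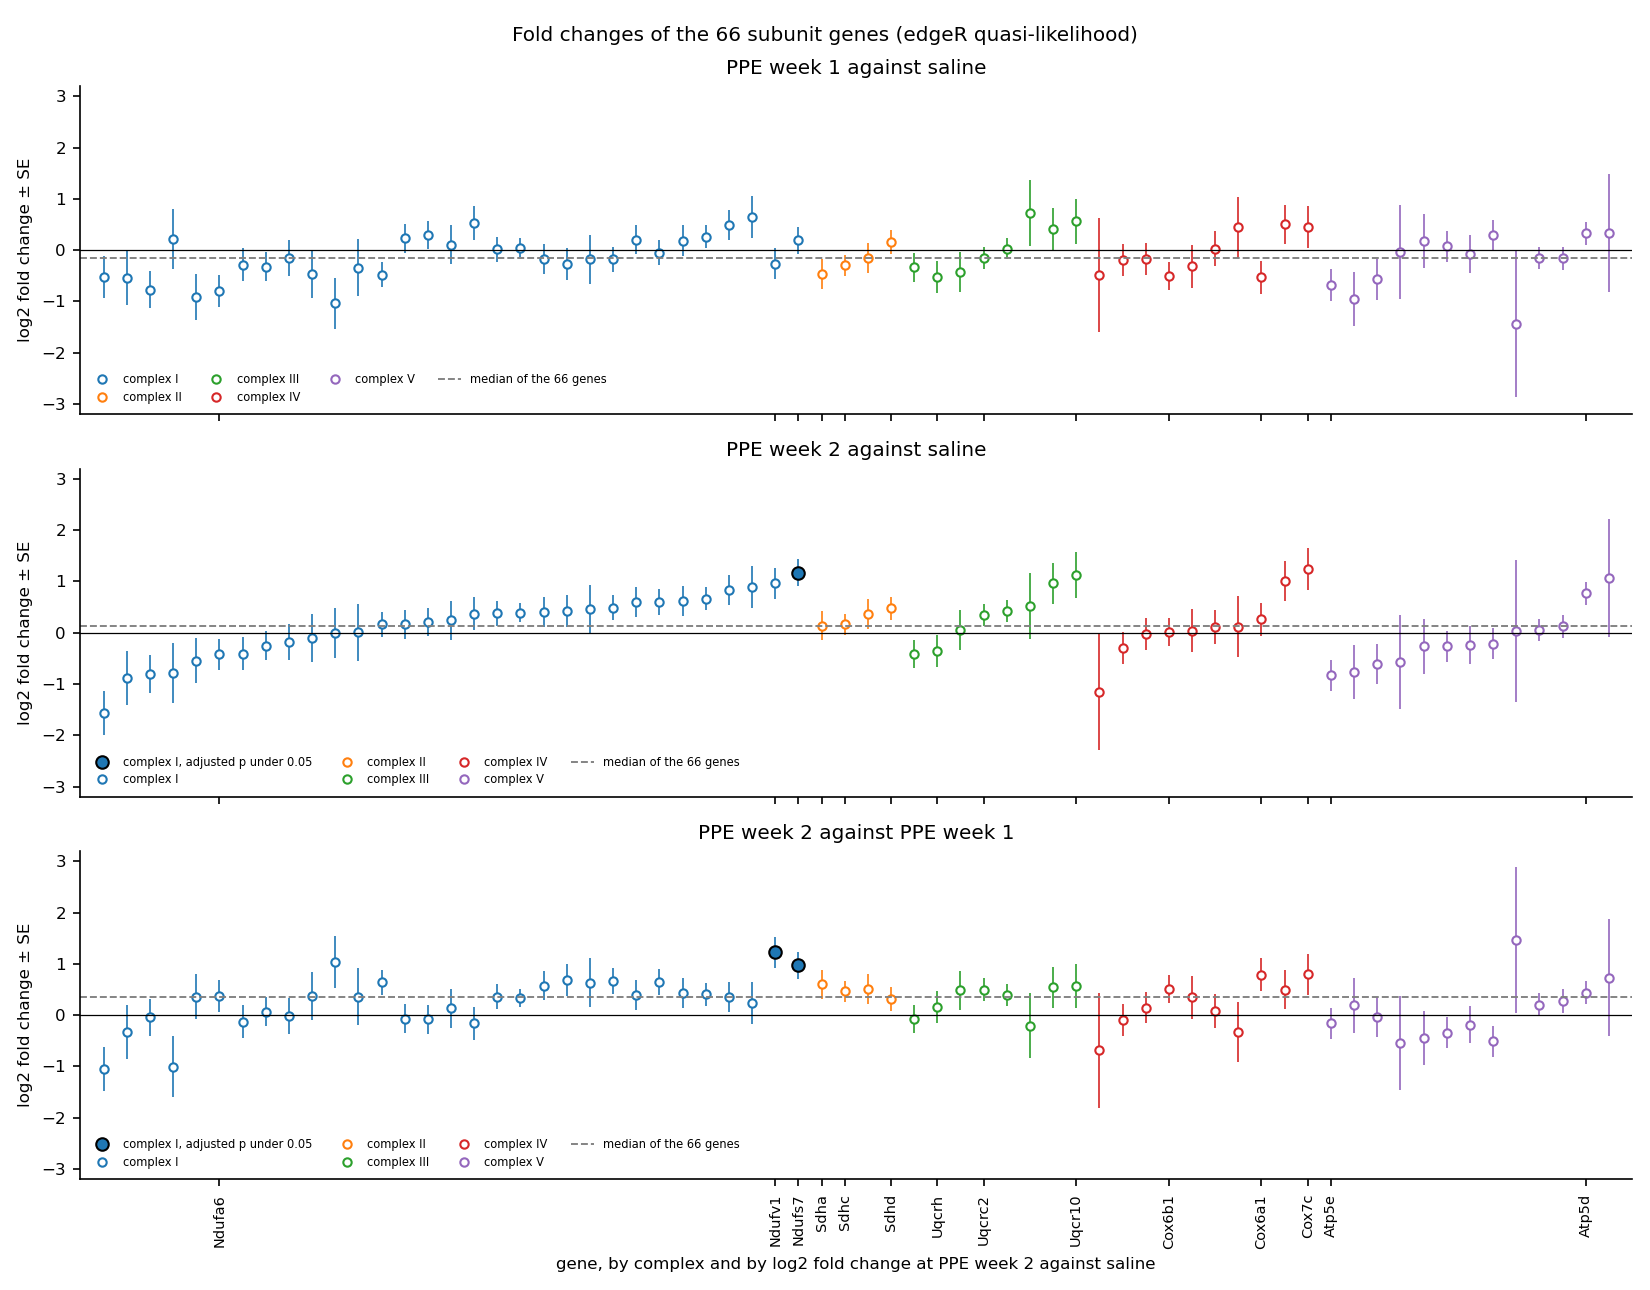
Log2 fold change ± SE of each of the 66 genes, ordered within each complex by the value at PPE week 2 against saline and labelled for the genes named by rule, for PPE week 1 and PPE week 2 over saline and for PPE week 2 over PPE week 1 (positive values: higher in the PPE group or in the later week). Filled points have an adjusted p under 0.05, which are Ndufs7 in the middle panel and Ndufs7 and Ndufv1 in the lower panel, and the dashed line is the median of the 66 genes, at -0.16, 0.13 and 0.35 from top to bottom.

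Complex I takes electrons from NADH, and its core subunits carry the flavin and the iron-sulfur clusters. Ndufs7, which holds the last iron-sulfur cluster before ubiquinone, had 15.8, 15.6, 22.4 and 12.3 CPM at PPE week 1, 34.5, 24.7, 30.6 and 40.01 CPM at PPE week 2 and 16.4, 11.2, 13.9 and 16.3 CPM in saline. All 4 PPE week 2 libraries lay above all other libraries, and PPE week 1 overlapped saline. Ndufs7 was 2.25-fold higher at PPE week 2 than in saline (log2 fold change 1.17 ± 0.26 SE, adjusted p = 0.0256, edgeR quasi-likelihood test) and 1.96-fold higher at PPE week 2 than at PPE week 1 (0.97 ± 0.26, adjusted p = 0.0331). Its accession is NM_029272, on chromosome 10 at 80249105 to 80256794 (GRCm38.p6). Against saline the adjusted p was 0.0698, 0.0778 and 0.0512 without saline replicates 2, 3 and 4, and 0.0708 without PPE week 2 replicate 4. With the share of the ribosomal RNA precursor as a covariate, which does not overlap between PPE week 2 and saline, 0 of 12756 rows were called against saline. The missing call of Ndufs7 in that fit is thus shared with every row. Its log2 fold change there was 0.30 (adjusted p = 0.975, edgeR quasi-likelihood test). Between the PPE weeks that fit called 0.541% of all rows and gave Ndufs7 a log2 fold change of 0.58 (adjusted p = 0.469, edgeR quasi-likelihood test).

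Ndufv1, the subunit that binds NADH and the flavin, had 27.4, 41.7, 39.5 and 32.5 CPM at PPE week 1, 129, 43.6, 70.3 and 86.9 CPM at PPE week 2 and 46.8, 31.3, 29.5 and 61.99 CPM in saline. PPE week 2 replicate 2 lay only just above the highest PPE week 1 library, and PPE week 2 overlapped saline. Ndufv1 was 2.34-fold higher at PPE week 2 than at PPE week 1 (log2 fold change 1.23 ± 0.30, adjusted p = 0.0251, edgeR quasi-likelihood test), and its log2 fold change against saline was 0.96 ± 0.30 (adjusted p = 0.107). Its accession is NM_133666, on chromosome 19 at 4007499 to 4012755. Between the PPE weeks the adjusted p was 0.0838, 0.0632, 0.0522 and 0.0717 without PPE week 1 replicates 1 to 4, and 0.0662 without PPE week 2 replicate 1 (log2 fold change 0.92). For Ndufs7 in that comparison it was 0.0938, 0.114 and 0.107 without PPE week 1 replicates 1, 2 and 4, and 0.0701, 0.0711 and 0.0692 without PPE week 2 replicates 1, 3 and 4.

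Ndufb4, an accessory subunit of the membrane arm that was singled out after its values were seen, had its lowest levels at PPE week 2. It had 8.54, 9.29, 9.20 and 10.1 CPM at PPE week 1, 2.15, 2.30, 8.23 and 5.18 CPM at PPE week 2 and 13.4, 16.7, 10.98 and 12.2 CPM in saline. The 3 groups did not overlap, with saline highest and PPE week 2 lowest. The log2 fold change at PPE week 2 was -1.57 ± 0.42 against saline (adjusted p = 0.0586, edgeR quasi-likelihood test) and -1.05 ± 0.42 against PPE week 1 (adjusted p = 0.155). DESeq2, limma-voom and the fit to halved counts called it against saline. Its count is uncertain, since 37.0% of the stretches of 50 bases in its transcript occur in transcripts of other genes.

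Promoters are shown for the genes that were called, Ndufs7 and Ndufv1, for Ndufb4 as the gene whose PPE week 2 libraries lay below all others, and for Sdha of complex II, which like Ndufb4 holds repeated NRF1 motifs. NRF1, GABP, YY1 and the ERR receptors are transcription factors known to act on nuclear genes of mitochondria. Each sequence runs from 250 bases before to 50 bases after the start of the gene that the RefSeq promoter table uses, 5′ to 3′ on the strand of the gene, from RefSeq (GRCm38.p6), and capitals mark motif matches. The windows are chr10:80249199-80249498 for Ndufs7 (plus strand), chr19:4012706-4013005 for Ndufv1 (minus strand), chr16:37654319-37654618 for Ndufb4 (minus strand) and chr13:74350191-74350490 for Sdha (minus strand).
Ndufs7: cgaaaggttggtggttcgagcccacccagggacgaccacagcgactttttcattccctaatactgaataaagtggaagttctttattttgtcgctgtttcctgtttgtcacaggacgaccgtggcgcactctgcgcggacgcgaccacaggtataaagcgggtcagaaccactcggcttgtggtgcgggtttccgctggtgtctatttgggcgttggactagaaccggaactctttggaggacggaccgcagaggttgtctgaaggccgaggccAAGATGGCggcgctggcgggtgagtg
Ndufv1: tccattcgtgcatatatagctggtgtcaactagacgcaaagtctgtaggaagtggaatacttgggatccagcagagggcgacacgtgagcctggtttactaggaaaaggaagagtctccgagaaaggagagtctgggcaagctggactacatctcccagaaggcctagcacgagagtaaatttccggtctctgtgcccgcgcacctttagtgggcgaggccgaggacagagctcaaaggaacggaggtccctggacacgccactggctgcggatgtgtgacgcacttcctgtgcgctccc
Ndufb4: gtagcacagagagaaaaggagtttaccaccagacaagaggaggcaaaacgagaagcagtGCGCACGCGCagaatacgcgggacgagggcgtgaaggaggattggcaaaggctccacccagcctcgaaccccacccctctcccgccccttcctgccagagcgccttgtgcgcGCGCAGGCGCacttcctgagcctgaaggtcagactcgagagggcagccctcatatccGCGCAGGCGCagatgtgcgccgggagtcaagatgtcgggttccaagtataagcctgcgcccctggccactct
Sdha: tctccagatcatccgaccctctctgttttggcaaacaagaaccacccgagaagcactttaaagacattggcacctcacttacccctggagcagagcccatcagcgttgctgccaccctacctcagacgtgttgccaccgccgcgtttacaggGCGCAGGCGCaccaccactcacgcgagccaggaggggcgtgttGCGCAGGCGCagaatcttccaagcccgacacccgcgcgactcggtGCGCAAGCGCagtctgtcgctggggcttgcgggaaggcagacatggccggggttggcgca
The Ndufs7 window held a YY1 motif at bases 275 to 282, just after that start, the Ndufv1 window none of the motifs, and the Ndufb4 and Sdha windows 3 NRF1 motifs each. The Ndufs7 window lies wholly within the interval given above for the gene, so the start it uses is not the first base of that interval.

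Promoters were found for 54 of the 66 genes, as 57 windows, and each motif was searched on both strands; the matches in the printed windows do not overlap. The NRF1 motif (GCGCA and GCGC with any base between them) was present in 15 of 57 windows (26.3%), against 4.6% of 32851 windows of all genes. YY1 (AAGATGGC) was present in 7 (12.3%, against 2.75%), GABP (CCGGAAGT) in 5 (8.77%, against 3.89%) and ERR (TCAAGGTCA) in 1 (1.75%, against 0.423%). A match describes the letters in the window and not binding of a factor.

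**Figure D4:**
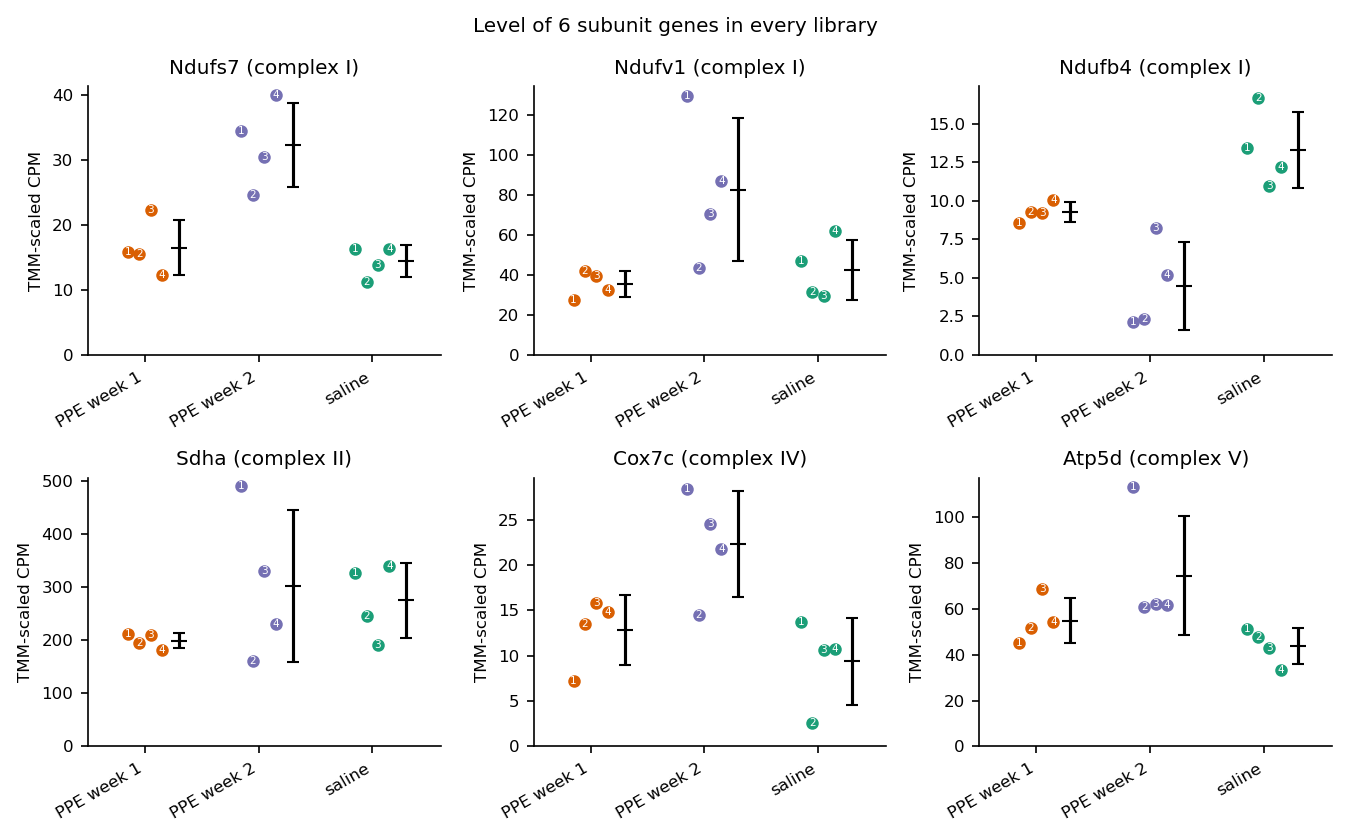
TMM-scaled CPM (linear axes from 0) of Ndufs7, Ndufv1, Ndufb4, Sdha, Cox7c and Atp5d in PPE week 1, PPE week 2 and saline libraries. Points are libraries with their replicate number, and bars show the mean ± SD (n = 4). Ndufs7 is at 24.7 to 40.0 CPM at PPE week 2, above every other library, and Ndufb4 at 2.15 to 8.23 CPM, below every other library.

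Of the other complex I genes, Ndufa6, an accessory subunit, had the smallest p at PPE week 1. It had 14.9, 16.2, 17.4 and 21.9 CPM at PPE week 1, 37.5, 16.02, 23.99 and 14.1 CPM at PPE week 2 and 32.9, 26.8, 21.3 and 41.8 CPM in saline. Only PPE week 1 replicate 4 reached the range of saline, and PPE week 2 libraries lay on both sides of its lower end (log2 fold change at PPE week 1 against saline -0.81 ± 0.31, adjusted p = 0.13, edgeR quasi-likelihood test). Ndufa4, placed here by its symbol although its protein is known as a subunit of complex IV, was at 4.18 ± 1.90 CPM at PPE week 1, 3.31 ± 0.839 CPM at PPE week 2 and 6.14 ± 2.32 CPM in saline. Its paralog Ndufa4l2, known to be induced in low oxygen, was at 13.2 ± 5.32 CPM at PPE week 1, 12.8 ± 4.59 CPM at PPE week 2 and 22.5 ± 8.37 CPM in saline. Both overlapped between all groups. The log2 ratio of Ndufa4l2 to Ndufa4 was 1.63 ± 1.21 at PPE week 1, 1.85 ± 0.50 at PPE week 2 and 1.85 ± 0.98 in saline. By a two-sided exact permutation test this ratio gave p = 0.714 for PPE week 1 over saline, p = 1 for PPE week 2 over saline and p = 0.771 for PPE week 2 over PPE week 1 (n = 4 per group, adjusted p = 1 for each over the 3 comparisons, smallest possible p 0.0286).

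Over all 31 complex I genes, log2 fold changes at PPE week 1 against saline lay between -1.04 (Ndufb6) and 0.65 (Ndufa2), with 13 of 31 above 0. At PPE week 2 against saline 20 of 31 were above 0, and the median was 0.24. Ndufb7, an accessory subunit of the membrane arm, was at 12.6 ± 1.51 CPM at PPE week 1, 16.1 ± 3.57 CPM at PPE week 2 and 9.01 ± 1.81 CPM in saline, with all PPE week 2 libraries above all saline libraries (0.84 ± 0.29, adjusted p = 0.144, edgeR quasi-likelihood test). Ndufb11, another membrane arm subunit, was at 16.1 ± 1.60 CPM at PPE week 1, 25.2 ± 5.27 CPM at PPE week 2 and 16.6 ± 3.01 CPM in saline, and its PPE week 2 libraries lay above those of both other groups. Both of these genes were chosen after their values were seen.

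Complex II, succinate dehydrogenase, links the tricarboxylic acid cycle to ubiquinone. Sdha, its flavoprotein, had 212, 195, 209 and 182 CPM at PPE week 1, 490.1, 160.1, 331 and 229.9 CPM at PPE week 2 and 328, 246, 190.4 and 339 CPM in saline. PPE week 2 libraries spanned the range of all others. The log2 fold change of Sdha was -0.47 ± 0.29 at PPE week 1 against saline (adjusted p = 0.391) and 0.60 ± 0.29 at PPE week 2 against PPE week 1 (adjusted p = 0.259, edgeR quasi-likelihood test). Sdhb, the iron-sulfur subunit, was at 40.8 ± 10.7 CPM at PPE week 1, 58.04 ± 24.2 CPM at PPE week 2 and 45.2 ± 13.1 CPM in saline. Sdhc, a membrane anchor, was at 45.7 ± 3.19 CPM at PPE week 1, 63.1 ± 12.02 CPM at PPE week 2 and 56.2 ± 15.2 CPM in saline, and its lowest adjusted p was 0.2, between the PPE weeks (0.47 ± 0.20, edgeR quasi-likelihood test). Sdhd, the other anchor, was at 39.4 ± 9.19 CPM at PPE week 1, 49.02 ± 14.01 CPM at PPE week 2 and 35.4 ± 4.04 CPM in saline, and its lowest adjusted p was 0.312, at PPE week 2 against saline (0.47 ± 0.23). Sdhb, Sdhc and Sdhd overlapped between all groups.

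Complex III passes electrons from ubiquinol to cytochrome c. Uqcr10, a small subunit, had 5.78, 14.4, 12.9 and 11.3 CPM at PPE week 1, 29.2, 7.96, 9.55 and 19 CPM at PPE week 2 and 6.27, 6.56, 4.97 and 12.3 CPM in saline. Saline replicate 4 lay above PPE week 2 replicates 2 and 3 (log2 fold change at PPE week 2 against saline 1.13 ± 0.45, adjusted p = 0.198, edgeR quasi-likelihood test). Uqcrc1, a core subunit, was at 83.5 ± 4.52 CPM at PPE week 1, 109.8 ± 43.7 CPM at PPE week 2 and 81.7 ± 13.1 CPM in saline. Uqcrc2, the other core subunit, was at 86.4 ± 21.2 CPM at PPE week 1, 122 ± 39.8 CPM at PPE week 2 and 96.1 ± 13.2 CPM in saline, with its lowest adjusted p of 0.2 between the PPE weeks (0.50 ± 0.22). Uqcrfs1, the Rieske iron-sulfur protein, was at 14.7 ± 3.62 CPM at PPE week 1, 20.5 ± 8.72 CPM at PPE week 2 and 19.7 ± 10.4 CPM in saline. Uqcrh, the hinge protein, was at 15.2 ± 3.07 CPM at PPE week 1, 17.02 ± 6.87 CPM at PPE week 2 and 21.7 ± 5.21 CPM in saline, with a log2 fold change of -0.52 ± 0.31 at PPE week 1 against saline (adjusted p = 0.377, edgeR quasi-likelihood test). All of these overlapped between the groups. At PPE week 1 against saline 4 of the 8 complex III genes were above 0, and at PPE week 2 against saline 6 of 8.

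Complex IV, cytochrome c oxidase, reduces oxygen. Cox7c, a small subunit, had 7.25, 13.5, 15.9 and 14.8 CPM at PPE week 1, 28.4, 14.5, 24.5 and 21.8 CPM at PPE week 2 and 13.7, 2.53, 10.6 and 10.7 CPM in saline. PPE week 2 lay entirely above saline, by a small margin between PPE week 2 replicate 2 and saline replicate 1 (1.24 ± 0.41, adjusted p = 0.127, edgeR quasi-likelihood test). Cox7c shares 53.0% of its stretches of 50 bases with other genes, which makes its level uncertain. Cox6a1 had 83.1, 78.96, 80.7 and 60.7 CPM at PPE week 1, 243, 59.95, 109.9 and 112 CPM at PPE week 2 and 128, 113, 86.4 and 112 CPM in saline. PPE week 1 lay entirely below saline and PPE week 2 on both sides of it, with an adjusted p of 0.373 at PPE week 1 against saline (-0.53 ± 0.32) and 0.17 in the comparison of the PPE weeks (0.79 ± 0.32, edgeR quasi-likelihood test).

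Cox6b1, a subunit on the side that faces cytochrome c, was at 34.6 ± 5.91 CPM at PPE week 1, 49.4 ± 25.8 CPM at PPE week 2 and 49.2 ± 5.45 CPM in saline, and its PPE week 1 libraries lay below all saline libraries (-0.51 ± 0.27, adjusted p = 0.305, edgeR quasi-likelihood test). Cox4i2, a form of subunit IV known from lung and low oxygen, was near the minimum, at 1.36 ± 0.828 CPM at PPE week 1, 0.845 ± 0.856 CPM at PPE week 2 and 1.91 ± 0.811 CPM in saline. Cox7a2, the form of its subunit found in most tissues, was at 14.5 ± 5.51 CPM at PPE week 1, 15.3 ± 4.80 CPM at PPE week 2 and 14.1 ± 3.11 CPM in saline. Of the 10 complex IV genes 4 were above 0 for PPE week 1 over saline and 7 for PPE week 2 over saline. The isoform partners Cox4i1 and Cox6a2 (the form of striated muscle) were below 1 CPM, so no ratio was computed for them. The forms left out of the set by its rule, Cox7a1 and Cox8b, known from heart, skeletal muscle and brown fat, ranged from 0.734 to 3.21 CPM and from 0.275 to 6.88 CPM at PPE week 1, from 0 to 29.3 CPM and from 0 to 99.6 CPM at PPE week 2, and from 2.61 to 22.5 CPM and from 7.32 to 26.1 CPM in saline.

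Complex V is the ATP synthase. Atp5d, the delta subunit of its central stalk, had 45.3, 51.5, 68.5 and 54.1 CPM at PPE week 1, 113, 60.6, 62.1 and 61.6 CPM at PPE week 2 and 51.3, 47.5, 42.7 and 33.5 CPM in saline. PPE week 2 lay entirely above saline, with 3 libraries close together and replicate 1 far above them (0.76 ± 0.22, adjusted p = 0.0801, edgeR quasi-likelihood test). Between the PPE weeks its log2 fold change was 0.44 ± 0.22 (adjusted p = 0.279). Atp5e, the epsilon subunit of the same stalk, had 24.2, 30.96, 24.4 and 20.2 CPM at PPE week 1, 28.2, 13.9, 23.6 and 23.97 CPM at PPE week 2 and 37.1, 65.1, 21.6 and 36.2 CPM in saline. Saline replicate 3 lay within the range of both PPE groups, and the adjusted p was 0.196 at PPE week 1 (-0.68 ± 0.30) and 0.16 at PPE week 2 (-0.83 ± 0.30) against saline by edgeR's quasi-likelihood test.

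Atp5a1 and Atp5b, described above per length, had group means that lay within the spread of the libraries. Atp5a1 had 374, 386, 421 and 399.8 CPM at PPE week 1, 716, 301, 378 and 429 CPM at PPE week 2 and 510.1, 399, 335 and 519.5 CPM in saline. Its log2 fold change relative to saline was -0.16 ± 0.22 at PPE week 1 and 0.05 ± 0.22 at PPE week 2, and it was 0.21 ± 0.22 at PPE week 2 relative to PPE week 1. For Atp5b these were -0.16 ± 0.23, 0.12 ± 0.23 and 0.28 ± 0.23. Atp5g2, a gene for the membrane c subunit, was at 7.86 ± 1.40 CPM at PPE week 1, 6.92 ± 1.91 CPM at PPE week 2 and 8.22 ± 1.91 CPM in saline, with 87.4% of its stretches of 50 bases shared with other genes. Of the 13 complex V genes, 5 were above 0 for each PPE week over saline and 6 in the comparison of the PPE weeks. Across all complexes, 18 of the 66 genes shared over 20% of these stretches with other genes and 29 shared none, and Ndufs7, Ndufv1 and Sdha were among those that shared none.

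Of 45 assembly factors tested, a single gene rose at PPE week 1 and a single gene at PPE week 2 against saline, 0 fell, and 0 were called between the PPE weeks, against the 7.89%, 2.65% and 6.59% of all rows given above. The gene was Uqcc3 in both comparisons, an assembly factor of complex III, at 10.9 ± 1.02 CPM at PPE week 1, 13.9 ± 3.53 CPM at PPE week 2 and 4.02 ± 2.68 CPM in saline. Its log2 fold change was 1.44 ± 0.42 at PPE week 1 (adjusted p = 0.0453) and 1.79 ± 0.42 at PPE week 2 (adjusted p = 0.0328) against saline, by edgeR's quasi-likelihood test. No gene was called in any of the 3 comparisons among 12 tricarboxylic acid cycle enzymes, 12 genes of electron carriers (cytochrome c, ubiquinone synthesis and the acyl carrier protein Ndufab1), 12 regulators of mitochondrial gene expression and 15 genes of mitochondrial membranes and import. The cycle enzymes had a median log2 fold change of -0.38 relative to saline at PPE week 1, of 0.12 relative to saline at PPE week 2, and of 0.54 at PPE week 2 relative to PPE week 1.

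The fold changes of all genes moved with the base composition of their transcripts, most at PPE week 2 against saline. Over 6 bins of all rows from low to high GC content, the median log2 fold change there ran from -0.14 to 0.47, with a Spearman rho of 0.30 across 12499 rows, and over the 66 genes rho was 0.17. These are correlations across genes, which share libraries and are not independent replicates. Ndufs7 has 60.7% GC and Ndufv1 56.7%, both in the highest bin, against a median of 51.7% for the 66 genes. With a correction for GC content in each library, chosen after the data were seen, the log2 fold change of Ndufs7 against saline was 0.63 (adjusted p = 0.347) and that of Ndufv1 between the PPE weeks 1.13 (adjusted p = 0.0502, edgeR quasi-likelihood test).

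**Figure D5:**
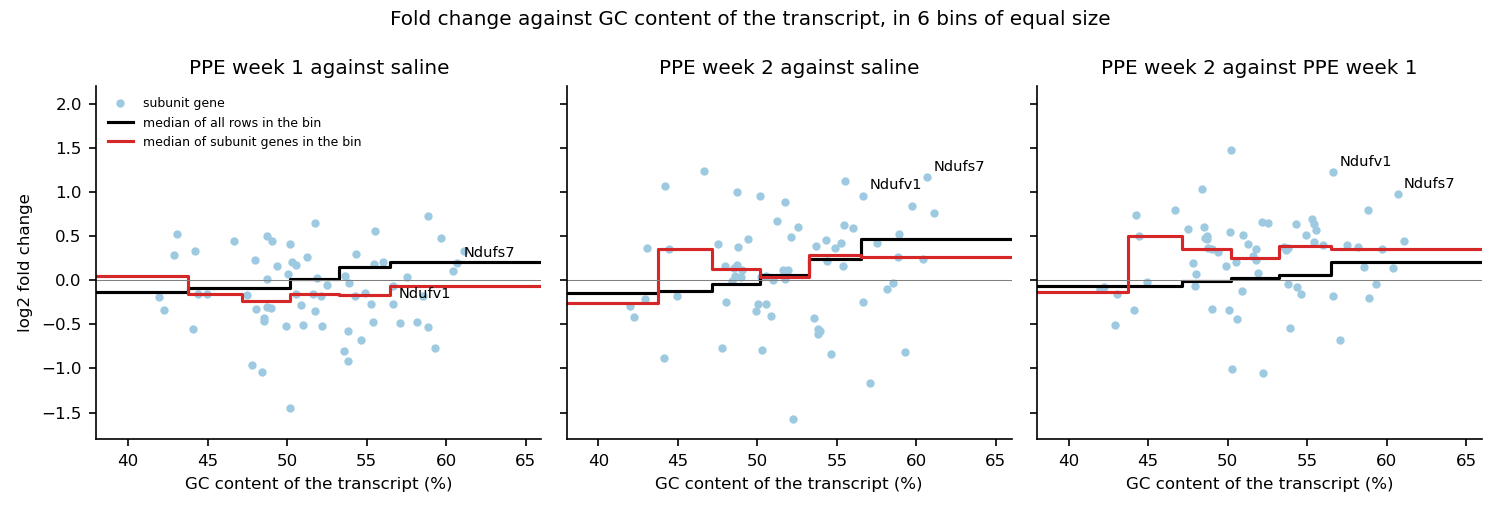
Log2 fold change of the 66 subunit genes (points) against the GC content of their transcripts in percent, with a panel each for PPE week 1 over saline, for PPE week 2 over saline and for PPE week 2 over PPE week 1. The black line is the median of all rows in each of 6 GC bins and the red line that of the subunit genes. At PPE week 2 against saline the black line ends at 0.47 in the highest bin, where Ndufs7 and Ndufv1 lie above both lines.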

How the data were processed

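Bulk RNA sequencing of 12 mouse aortas was analysed, with 4 libraries in each group, prepared from 500 ng of total RNA with a kit that does not mark strand, per the labels' protocols. The deposited table holds raw counts per RefSeq accession from the authors, on mm10 per the submitters' processing notes, which also name bcl2fastq and DESeq2 without versions; which aligner and counting method were used is not given in the sources used here. Comparison tables that the authors deposited give log2 fold changes and adjusted p-values, and were used only where named. Library totals were 8343313 to 12269131 counts, and small counts limit the precision of genes near 1 CPM.

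Of 34755 accessions, 34424 were named from RefSeq GRCm38.p6 and 192 from GENCODE M21, and 139 had no name. Counts were scaled by TMM, filtered by filterByExpr and fitted over 12756 rows with edgeR 4.0.16 (quasi-likelihood, robust, R 4.3.3), 1 mean per group, with Benjamini-Hochberg adjustment over all rows and a threshold of 0.05. The biological coefficient of variation was 0.512. The script was tested on simulated data with less spread than these libraries have, and only for PPE week 1 against saline. The p-values measure the spread between these libraries. CPM are TMM-scaled counts per 1000000, and levels between genes are given per kilobase of transcript.

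Named genes were, in each complex and comparison, the called gene with the largest change or else the gene with the smallest p, plus isoform pairs and core catalytic subunits; others are marked where they appear, and some individual genes are not reported here. Members and lists were chosen with earlier results of these data known. Alternatives were DESeq2 1.42.0, limma-voom (limma 3.58.1), scaling by library size, NR_046233 left out of the library size or used as a covariate, no filter, only the 8 libraries compared, a replicate block, halved counts, counts summed over accessions, each library left out, and a correction for GC content added after the data were seen. Replicate numbers of the groups do not pair libraries by the labels.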

Additional observations from a re-analysis of the deposited data

Results flagged for a closer look

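In 3 of 72 sets of 4 libraries (24 named genes in 3 groups), a single library stood far from the other 3. The gap to its nearest neighbour on the log2 scale took more of the range than Dixon's critical value, and chance gives about 1 in 20 such sets. Levels below are in CPM, while each gap is a share of the range of the log2 values. Atp5d in PPE week 2 was highest in replicate 1, at 113 CPM against 60.6 to 62.1 CPM in the other 3, a gap of 0.962 of the range. Cox6a1 in PPE week 1 was lowest in replicate 4, at 60.7 CPM against 79.0 to 83.1 CPM, a gap of 0.838 of the range. Cox7c in saline was lowest in replicate 2, at 2.53 CPM against 10.6 to 13.7 CPM, a gap of 0.845 of the range.

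The changes from saline differed between the PPE weeks for 2 genes of complex I by the test of that difference. Ndufs7 differed by 0.97 on the log2 scale, PPE week 2 minus PPE week 1 (adjusted p = 0.0331, edgeR quasi-likelihood test), and Ndufv1 by 1.23 (adjusted p = 0.0251).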

How the results depend on the processing

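At PPE week 1 against saline, no subunit gene was called under any alternative except the fit to the 8 libraries of both groups, which called 4 lower (7.83% of its rows). At PPE week 2 against saline, the number called higher was 3 by DESeq2 (3.21% of all rows), 19 with scaling by library size alone (12.6%), and 0 with only 8 libraries (0.282%), with the NR_046233 covariate (0%) and with the GC correction (0.16%). The number called lower was 1 by DESeq2 (2.63%), by limma-voom (1.13%) and with halved counts (1.63%). Between the PPE weeks the number called higher was 1 without the filter (2.13%) and with only 8 libraries (2.76%), and 0 with the NR_046233 covariate (0.423%) and with the GC correction (3.59%). Scaling by library size alone gave a median log2 fold change of 0.60 at PPE week 2 against saline, where the median of all rows moved as well, to 0.54. With halved counts the Ndufa4l2 to Ndufa4 log2 ratio differed by -0.0202 at PPE week 2 against saline. Apart from what the choice of libraries or genes fixes, the cause was not tested.

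Leaving out each library in turn gave 0 to 2 genes called higher (0.498 to 1.64% of all rows) at PPE week 2 against saline. There, 0 to 1 were called lower (0.535 to 1.5%). Between the PPE weeks 0 to 7 were called higher (1.55 to 4.83%). Medians ran from -0.21 to -0.05 at PPE week 1 against saline, from -0.11 to 0.31 at PPE week 2 against saline and from 0.016 to 0.45 between the PPE weeks. The difference in the log2 ratio of Ndufa4l2 to Ndufa4 ran from -0.59 to 0.16, from -0.37 to 0.36 and from -0.16 to 0.60 in the same order.

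Libraries with the same replicate number did not deviate together (correlations of -0.0881 to 0.0353 across genes). Pairs with different numbers ran from -0.0933 to 0.11. Whether libraries of the same number shared a day or a preparation was not tested. With the replicate block 0 genes were called between the PPE weeks (5.63% of all rows), where the fold change of Ndufs7 was 0.96 on the log2 scale (adjusted p = 0.0523) and that of Ndufv1 1.12 (adjusted p = 0.05003, edgeR quasi-likelihood test). Over the 24 named genes, 1602 values kept their side of the threshold without moving by more than the spread. A further 26 lost and 15 gained a call, and 13 moved by more than the spread. Of the values for the main results, which were counted apart from these, 200 stayed the same and 41 moved. Many values near 0 changed direction. For example, the log2 fold change of Atp5a1 at PPE week 2 against saline ran from -0.26 to 0.20 when single libraries were left out. Genes near 1 CPM, such as Atp5c1 and Cox4i2, have too few counts to show moderate changes.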
